A study of Mus musculus with 16 samples.

Results

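The 9 genes described here are the FOXO transcription factor genes *Foxo1*, *Foxo3*, *Foxo4* and *Foxo6* and 5 genes for ubiquitin ligases linked to muscle atrophy, *Fbxo32*, *Trim63*, *Fbxo30*, *Fbxo21* and *Fbxo31*. They were taken by symbol from a table of read counts for 24454 genes. All 9 were among the 15487 genes that passed the filter on low counts. RNA came from *gastrocnemius* muscle of 16 mice aged 3 months, with 1 library per mouse. HSALR mice are homozygous for a human skeletal actin (*HSA*) transgene that carries a long CTG repeat and is expressed in skeletal muscle, and they serve as a model of myotonic dystrophy type 1. The line (LR20b) was compared with mice of its background strain, FVB/N, which carried no transgene and are called control mice. Mice of each genotype received vehicle, labelled CTRL, or AICAR, an activator of AMP-activated protein kinase (AMPK), at 500 mg/kg for 7 days. The groups held 3 control mice on vehicle, 3 control mice on AICAR, 5 HSALR mice on vehicle and 5 HSALR mice on AICAR.

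FOXO proteins are transcription factors held in the cytoplasm when insulin signalling through AKT is active. When AKT activity falls they enter the nucleus and switch on genes of protein breakdown, autophagy and stress defence. In skeletal muscle, FOXO1 and FOXO3 are known for driving *Fbxo32* and *Trim63*, whose proteins atrogin-1 and MuRF1 tag muscle proteins for the proteasome during atrophy. Atrogin-1 and the other F-box proteins among the members are the substrate-binding subunits of SCF ubiquitin ligases, whereas MuRF1 is a RING ligase that binds the sarcomere. FOXO activity is set largely by phosphorylation and location of the protein, which transcript levels do not measure.

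FOXO proteins bind a short core in DNA, GTAAACA, and this core and a variant, GTAAATA, were searched on both strands of the 250 bases upstream of each RefSeq start site (build GRCm38.p6). The motifs differ in a single base, so no position matches both. RefSeq windows were given for 6 of the 9 members, and *Fbxo32*, *Foxo4* and *Foxo6* had none. Only *Trim63* held a match among those 6, a GTAAACA on the other strand, which reads TGTTTAC in the direction of the gene, from 194 to 188 bases before the start. Of all 32851 upstream windows of this length, 3.17% held GTAAACA, 2.73% held GTAAATA and 5.76% held either. A match is a string of letters and was not tested as a binding site. The window of *Trim63* is shown for this match, in capitals, and that of *Foxo3* because *Foxo3* was the FOXO gene that changed with AICAR in both genotypes. The *Trim63* window lies at chr4:134314870-134315119 on the plus strand and that of *Foxo3* at chr10:42276696-42276945 on the minus strand. Both end at the last base before the start. The *Foxo3* window had a GC content of 76.4% against 56.8% for *Trim63*.
Trim63: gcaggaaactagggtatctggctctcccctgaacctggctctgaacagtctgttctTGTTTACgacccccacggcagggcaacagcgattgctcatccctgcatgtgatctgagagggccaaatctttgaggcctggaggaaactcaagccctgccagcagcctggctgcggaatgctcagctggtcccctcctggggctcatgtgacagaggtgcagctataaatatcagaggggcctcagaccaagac
Foxo3: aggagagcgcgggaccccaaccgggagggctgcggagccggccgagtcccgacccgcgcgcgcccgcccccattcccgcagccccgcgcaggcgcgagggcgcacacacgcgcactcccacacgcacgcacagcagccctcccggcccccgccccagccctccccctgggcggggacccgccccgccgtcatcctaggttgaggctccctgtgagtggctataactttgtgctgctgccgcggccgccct

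Library totals ranged from 64890014 to 81987726 counts. The lowest count of any member was 262 (*Foxo6* in a control mouse on AICAR) and the highest 101751 (*Fbxo32* in an HSALR mouse on AICAR), so differences between mice set the error more than counting did. Levels are normalized CPM, the count of a gene relative to the total of its library after edgeR's TMM scaling. Summed levels of 8 muscle fibre markers lay between 131565 and 186437 CPM in every library. Summed levels of 8 epidermal markers were between 18.6 and 187 CPM in 6 libraries (control vehicle S450, control AICAR S448, HSALR vehicle S452, S453, S458 and S459) and at most 1.21 CPM in the other 10. In the HSALR mice all high libraries were in the vehicle group, which keeps only mouse S451 without them. A separate HSALR mouse on AICAR, S460, stood apart in the *Foxo1* level, in the *Foxo1* and *Foxo4* shares and in the ratio of *Trim63* to *Fbxo32*. The control groups were too small to be examined for this.

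Per kilobase of gene length, *Trim63* had the highest mean level in each of the 4 groups, from 125 CPM per kb (94.3 to 160, n = 3) in control mice on vehicle to 236 ± 45.4 (SD, n = 3) in control mice on AICAR. *Fbxo32*, *Foxo4* and *Fbxo31* followed at group means from 38.9 to 137 CPM per kb. The other 5 genes had group means from 1.85 to 9.02. Among the FOXO genes *Foxo4* had the highest level, with group means of 63.7 to 85.5 CPM per kb. In control mice on vehicle the ranges of *Foxo4* and *Fbxo32* overlapped, as did those of *Foxo3*, *Fbxo30*, *Foxo1* and *Fbxo21* between neighbours in that order. In HSALR mice on AICAR, *Trim63* (113 to 342) and *Fbxo32* (72.6 to 199) overlapped.

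**Figure D1:**
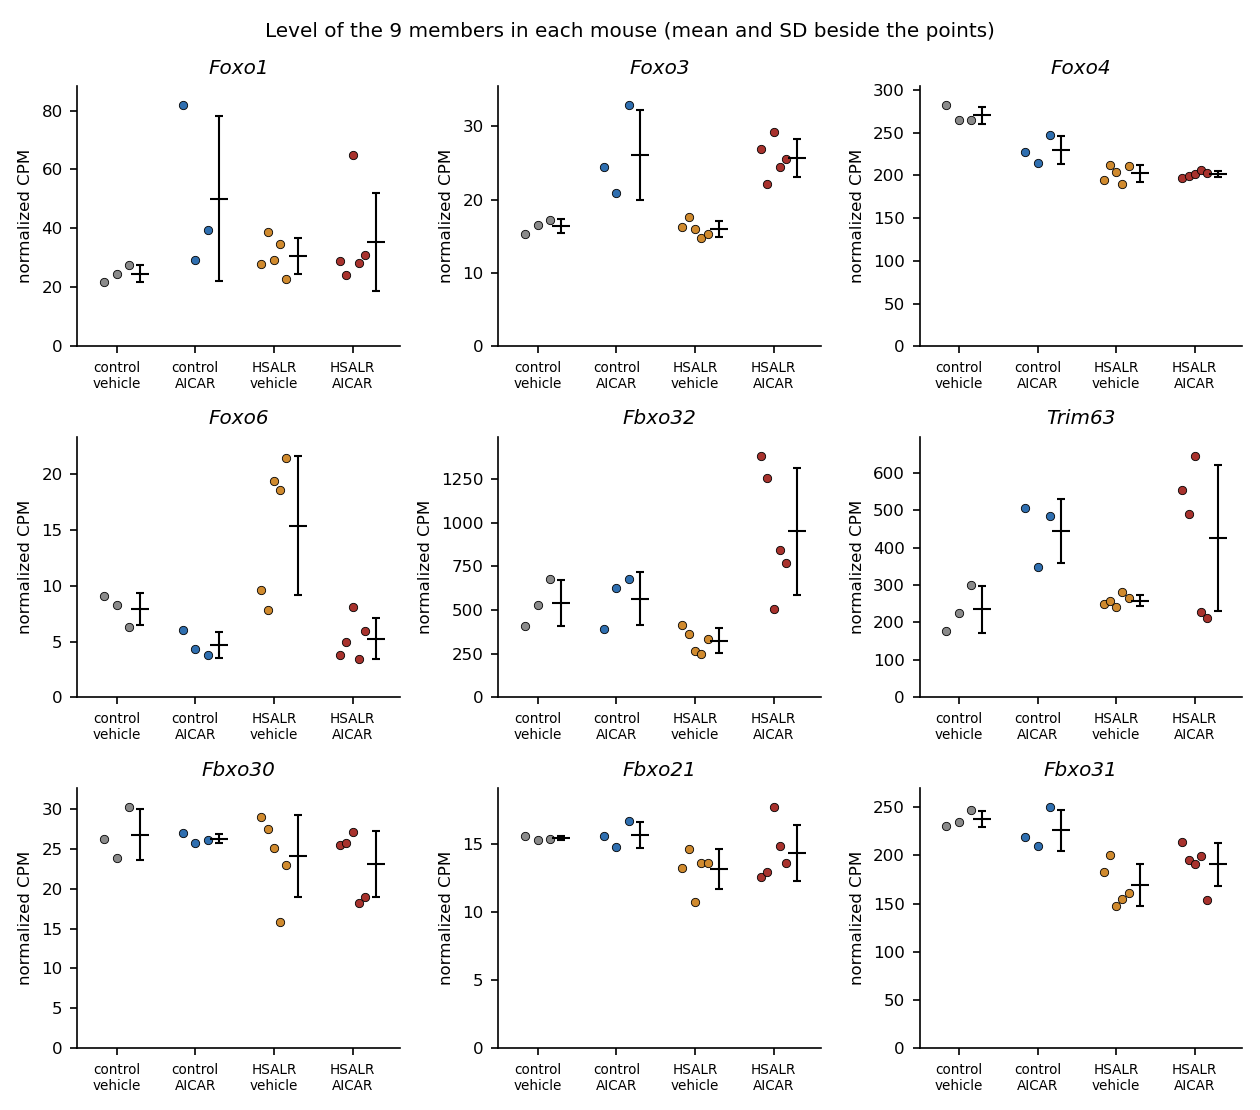
Normalized CPM of the 9 members in each mouse, 1 panel per gene, with 1 point per mouse, the 4 groups on the horizontal axis and the group mean with its SD beside the points. The vertical axes start at 0 and differ between panels. *Foxo3* sits at 14.7 to 17.6 in all 8 mice on vehicle and at 20.9 to 32.9 in all 8 mice on AICAR, and *Fbxo32* in HSALR mice moves from at most 415 on vehicle to at least 504 on AICAR.

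Vehicle-treated HSALR and control muscle were compared first, for the difference between the genotypes without AICAR. The control mice were of the background strain, so the transgene and other differences between the lines cannot be told apart. *Foxo6* was higher and *Foxo4* and *Fbxo31* were lower in HSALR muscle, so 3 of the 9 members changed, 1 of them higher and 2 lower. Of all genes tested, 26.9% changed, 15.4% higher and 11.5% lower. The median log2 fold change was -0.15 over the 9 members and 0.01 over all genes.

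*Foxo4* was at 282, 264 and 265 CPM in the 3 control mice and at 194, 212, 204, 190 and 211 CPM in the 5 HSALR mice. Each HSALR mouse was below each control mouse. The log2 fold change was -0.42 (SE 0.05, edgeR adjusted p = 5.16e-05), a level 0.75 times that of control muscle. *Fbxo31*, an F-box gene whose SCF complex is known to target cyclin D1, was at 230, 235 and 247 CPM in control mice and at 183, 201, 147, 155 and 161 CPM in HSALR mice. These groups did not overlap either, with a log2 fold change of -0.49 (SE 0.11, adjusted p = 0.0035). Scaling the libraries to *Tbp*, the reference gene of the study's qPCR, moved the median log2 fold change of all genes by 0.27. On that scale *Foxo4* had a value of -0.14 (adjusted p = 0.35) and *Fbxo31* of -0.21 (adjusted p = 0.29), still below zero but past no threshold.

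*Foxo6*, a FOXO gene best known from the brain, was at 9.09, 8.29 and 6.29 CPM in control mice and at 9.62, 7.79, 19.4, 18.6 and 21.5 CPM in HSALR mice. S453, S458 and S459 stood well above the controls, S451 lay just above the highest of them and S452 lay within their range. The log2 fold change of 0.96 (SE 0.34, adjusted p = 0.045) was close to the threshold. It lost its call in 14 of 29 alternative fits, among them limma with voom (0.87, adjusted p = 0.065) and the fit with an epidermal score as covariate (0.93, adjusted p = 0.095). Leaving out S445, S446, S448, S450, S453, S455, S458, S459 or S463 each ended the call, with log2 fold changes from 0.813 to 1.078 and adjusted p-values from 0.054 to 0.15. The 3 high mice had summed epidermal markers of 187, 18.6 and 65.6 CPM, S452 had 35.4 and S451 had 0.61. Control mouse S450 on vehicle had 92.3 CPM of these markers and *Foxo6* at 6.29 CPM. Control mouse S448 on AICAR had 104 CPM of them and *Foxo6* at 4.29 CPM. Without the 6 libraries with epidermal RNA, which leaves S451 alone in its group, the log2 fold change was 0.14 (adjusted p = 0.90). In that fit 1 member was called between the genotypes on vehicle, *Foxo4*, among 904 genes called in all, against 4169 with all libraries.

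*Fbxo32* was at 412, 530 and 676 CPM in control mice and at 415, 364, 263, 250 and 333 CPM in HSALR mice. The highest HSALR mouse lay just above the lowest control mouse, and the difference did not pass the test (log2 fold change -0.73, SE 0.28, adjusted p = 0.066). It passed under other settings: edgeR's likelihood ratio test gave adjusted p = 0.039, leaving out mouse S451 gave 0.0496, and leaving out S460, which enters only through the shared spread, gave 0.032. The value was -0.19 (adjusted p = 0.89) without the 6 libraries with epidermal RNA. *Fbxo21*, at 15.3 to 15.6 CPM in control and 10.7 to 14.6 CPM in HSALR mice, had ranges that did not overlap but an adjusted p of 0.13. *Trim63* spanned 178 to 301 CPM in control and 242 to 281 CPM in HSALR mice. *Foxo3* was at 15.3, 16.6 and 17.2 CPM in control mice and at 16.3, 17.6, 16.0, 14.7 and 15.4 CPM in HSALR mice, and its 95% interval of the log2 fold change ran from -0.29 to 0.22. The intervals were wider for *Foxo1* (-0.39 to 1.02) and *Fbxo30* (-0.51 to 0.20), which also did not pass.

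Other cell types moved with genotype. All 5 endothelial markers were lower in vehicle-treated HSALR muscle, with summed levels of 163 to 213 CPM against 247 to 274 CPM in control muscle. Of 5 leukocyte markers, 2 were higher, with sums of 60.7 to 74.5 against 44.8 to 61.5 CPM. In bulk RNA, fewer cells of a type and less RNA per cell cannot be told apart. The part of these cells in the values of the members was not tested.

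The effect of AICAR was then examined in each genotype. In control mice *Foxo3* rose and *Foxo4* fell, so 2 of 9 members changed, where 13.2% of all genes did, 8.4% higher and 4.77% lower. Without the 6 libraries with epidermal RNA, 1 member was called in control mice, *Foxo3*, among 697 genes called in all, against 2039 with all libraries. In HSALR mice *Fbxo32* and *Foxo3* rose and *Foxo6* fell, so 3 of 9 changed, where 26.6% of all genes did, 13.7% higher and 13% lower. Control groups had 3 mice and HSALR groups had 5, so a call in HSALR mice and none in control mice does not show that the effects differ. None of the 9 members had different AICAR effects in the genotypes by edgeR's quasi-likelihood test of the difference, where 0.691% of all genes did. At an unadjusted p under 0.05 there were 2, *Fbxo32* and *Foxo4*. The share of all genes at that cut-off was not computed. Limma with voom called 0 members, while DESeq2 and edgeR's likelihood ratio test called 1 each, *Fbxo32*. DESeq2 called 536 genes in all and the likelihood ratio test 322, against 107 by the quasi-likelihood test.

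*Foxo3* was higher after AICAR in every mouse of either genotype. In control mice it was at 24.4, 20.9 and 32.9 CPM on AICAR, against at most 17.2 CPM on vehicle. In HSALR mice it was at 26.9, 22.2, 29.2, 24.5 and 25.5 CPM on AICAR, against at most 17.6 CPM on vehicle. The log2 fold changes were 0.67 (SE 0.13, adjusted p = 0.0046) in control and 0.68 (SE 0.10, adjusted p = 2.77e-04) in HSALR mice, both 1.6 times the vehicle level. The difference between them was 0.01 with a 95% interval from -0.35 to 0.37. In HSALR mice the call held in each of the 16 fits that left out a mouse. A fit of only the 2 control groups gave 0.66 with adjusted p = 0.050, just short of the threshold.

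*Fbxo32* in HSALR mice on AICAR was at 1381, 1260, 504, 842 and 768 CPM, each above the highest HSALR mouse on vehicle at 415 CPM. This was a rise of 2.92 times (log2 fold change 1.55, SE 0.25, adjusted p = 4.83e-04). Mouse S460 was the lowest at 504 CPM, and without it the log2 fold change was 1.71. In control mice the values on AICAR were 391, 627 and 677 CPM, which covered the range on vehicle (log2 fold change 0.07, 95% interval -0.61 to 0.75). The difference of the AICAR effects was 1.48 on the log2 scale (SE 0.41, edgeR adjusted p = 0.11). The adjusted p was 0.025 without S460, 0.030 with DESeq2 and 0.022 with edgeR's likelihood ratio test. It did not pass in the other 25 of 28 alternatives, with a value of 1.27 without S447 (adjusted p = 0.22) and of 1.02 without the 6 libraries (0.66). This difference, like the rise itself, uses the HSALR vehicle group, whose *Fbxo32* level was the lowest of the 4 groups. Between the genotypes on AICAR, *Fbxo32* had a log2 fold change of 0.75 (adjusted p = 0.078).

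*Trim63* on AICAR was at 505, 347 and 484 CPM in control mice, all above the 178 to 301 CPM on vehicle. In HSALR mice it was at 553, 490, 644, 227 and 212 CPM on AICAR against 242 to 281 CPM on vehicle. Thus 3 HSALR mice on AICAR were well above the vehicle range and 2, S462 and S463, were below it. Neither log2 fold change passed the test in edgeR's quasi-likelihood fit, at 0.92 (SE 0.34, adjusted p = 0.085) in control and 0.72 (SE 0.26, adjusted p = 0.055) in HSALR mice. Both did with DESeq2 (adjusted p = 0.047 and 0.031). Leaving out S462 or S463 gave adjusted p-values of 0.018 and 0.013 in HSALR mice, and leaving out S463 gave 0.047 in control mice. Without S460 the value in HSALR mice was 0.52 (adjusted p = 0.14), and without the 6 libraries the adjusted p was 0.46 in HSALR and 0.16 in control mice.

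**Figure D2:**
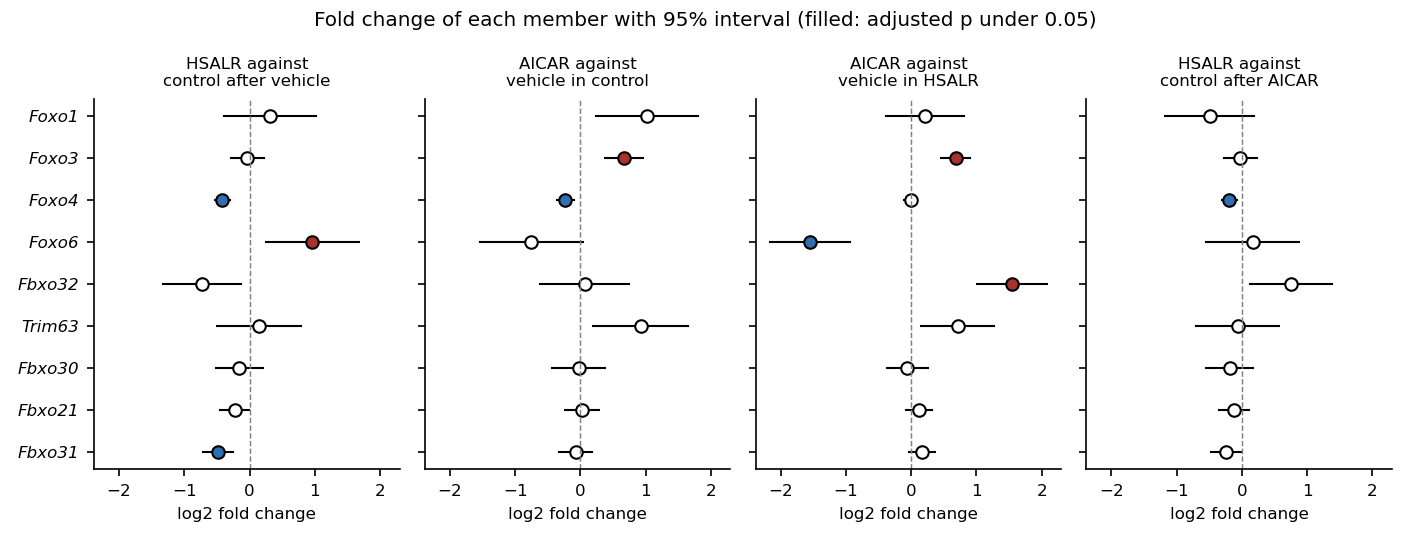
Log2 fold change of each member (points) with its 95% interval (lines) in the 4 comparisons between groups, from edgeR's quasi-likelihood fit of all 16 libraries. Filled points passed an adjusted p of 0.05, red for higher and blue for lower. *Foxo3* is filled in both AICAR panels, and *Fbxo32* only in the panel of HSALR mice, at 1.55.

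*Foxo6* in HSALR mice fell to 3.84, 4.96, 8.07, 3.45 and 5.93 CPM on AICAR. The highest of them, S460, was above the lowest mouse on vehicle (7.79 CPM), so the groups overlapped at that edge. The log2 fold change was -1.55 (SE 0.29, adjusted p = 0.0012). In control mice the values on AICAR, 6.02, 4.29 and 3.75 CPM, were all below those on vehicle, with a log2 fold change of -0.75 that did not pass (adjusted p = 0.20). The vehicle-treated HSALR mice enter both this fall and the difference from control muscle on vehicle. All 8 epidermal markers fell with AICAR in HSALR mice, from sums of 0.61 to 187 CPM to at most 0.37 CPM. With an epidermal score as covariate 3 members were called, among 2108 genes called in all, against 4121 without the covariate. Without the 6 libraries, when 899 genes in all were called, no member was called. The log2 fold changes were then 1.19 for *Fbxo32* (adjusted p = 0.20), 0.65 for *Foxo3* (adjusted p = 0.062) and -0.88 for *Foxo6* (adjusted p = 0.20).

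*Foxo4* fell slightly with AICAR in control mice, to 228, 215 and 247 CPM (log2 fold change -0.23, SE 0.06, adjusted p = 0.021). In HSALR mice it was at 197, 200, 201, 206 and 203 CPM on AICAR, within the range on vehicle (log2 fold change -0.01, 95% interval -0.11 to 0.09). The difference of the effects was 0.23 (SE 0.08, edgeR adjusted p = 0.19). The fall in control mice lost its call without mouse S445 (adjusted p = 0.091), S447 (0.057) or S448 (0.095), in the fit of only the 2 control groups (0.096) and without the 6 libraries with epidermal RNA (0.12), though the log2 fold change stayed between -0.24 and -0.20. With *Tbp* scaling the value itself went to -0.03 (adjusted p = 0.89). *Foxo1* reached 81.8, 29.1 and 39.4 CPM in control mice on AICAR against 21.8, 24.7 and 27.6 CPM on vehicle. The groups did not overlap, yet the log2 fold change of 1.02 (SE 0.37) had an adjusted p of 0.081. Mouse S447 held the highest value, and without it the log2 fold change was 0.47. It passed without S448 (adjusted p = 0.043) or, through the shared estimate of the spread, without S460 (0.028). In HSALR mice *Foxo1* was at 29.1, 24.3, 65.0, 28.3 and 31.1 CPM on AICAR, within the 22.9 to 38.7 CPM on vehicle except for S460. The log2 fold change was 0.21 (adjusted p = 0.62) with S460 and -0.12 (adjusted p = 0.74) without it.

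*Fbxo30*, whose protein is also called MUSA1, stayed between 15.8 and 30.2 CPM in all 16 mice, and *Fbxo21*, also called SMART, between 10.7 and 17.7 CPM. Neither passed the test for AICAR. For *Fbxo30* the 95% interval of the log2 fold change was -0.43 to 0.38 in control and -0.37 to 0.25 in HSALR mice. For *Fbxo21* it was -0.23 to 0.28 and -0.07 to 0.32. *Fbxo31* on AICAR was at 219, 209 and 250 CPM in control and at 214, 195, 191, 199 and 154 CPM in HSALR mice, with adjusted p-values of 0.75 and 0.20 against vehicle. In HSALR mice, 3 of 5 endothelial markers also rose with AICAR and 2 of 5 fibroblast markers fell, and their part was not tested.

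Between the genotypes on AICAR, 1 of 9 members differed. This was *Foxo4*, lower in HSALR muscle (log2 fold change -0.19, SE 0.05, adjusted p = 0.021). Of all genes 21.8% differed, 12.2% higher and 9.64% lower. Each HSALR mouse on AICAR was below each control mouse on AICAR for *Foxo4*. In the same comparison 2 of 5 endothelial markers were lower in HSALR muscle, with sums of 204 to 228 against 254 to 273 CPM. Of the 8 epidermal markers 5 were lower, with sums of at most 0.37 CPM in HSALR mice and of 104 CPM in control mouse S448. *Foxo4* kept its call without the 6 libraries (log2 fold change -0.24, adjusted p = 0.025), and the part of endothelial cells was not tested. The call was lost without control mouse S447 (-0.20, adjusted p = 0.056) or S449 (-0.14, adjusted p = 0.11), and with *Tbp* scaling (-0.23, adjusted p = 0.21). Without S460, 3 members were called, *Foxo4*, *Fbxo32* (0.91, adjusted p = 0.019) and *Foxo1* (-0.83, adjusted p = 0.033), among 3790 genes called in all, against 3379 with all mice. With all mice *Foxo1* had a value of -0.50 (adjusted p = 0.29), and without S447 it was 0.053 (0.93), while *Fbxo32* was then at 0.54 (0.28). *Foxo3* and *Foxo6* had log2 fold changes of -0.02 and 0.16 between the genotypes on AICAR.

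The balance between *Trim63* and *Fbxo32* within a mouse does not depend on how libraries are scaled. The log2 ratio of *Trim63* to *Fbxo32* counts was -1.21, -1.23 and -1.17 in control mice on vehicle, a narrow range. In HSALR mice on vehicle it was -0.74, -0.51, -0.12, 0.17 and -0.33, above all 3. The mean difference of 0.90 had an exact two-sided permutation p of 0.018, the smallest that 5 against 3 mice allow, and an adjusted p of 0.071 over the 4 comparisons. In control mice on AICAR it was 0.37, -0.85 and -0.48, all above the control mice on vehicle. The mean difference of 0.88 had an exact permutation p of 0.10, the smallest possible with 3 against 3 (adjusted p = 0.13), and was 0.54 without S447. In HSALR mice on AICAR it was -1.32, -1.36, -1.89 and -1.85 in 4 mice and 0.36 in S460. The mean difference from vehicle was -0.91 (exact permutation p = 0.079, adjusted p = 0.13). Without S460 the mean difference was -1.301, with an adjusted p of 0.032 in the same exact permutation test. Between the genotypes on AICAR the mean difference was -0.89 (exact permutation p = 0.18). It was -0.55 without S447, and -1.28 without S460 with an adjusted p of 0.038. None of the 4 comparisons passed after adjustment with all mice.

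**Figure D3:**
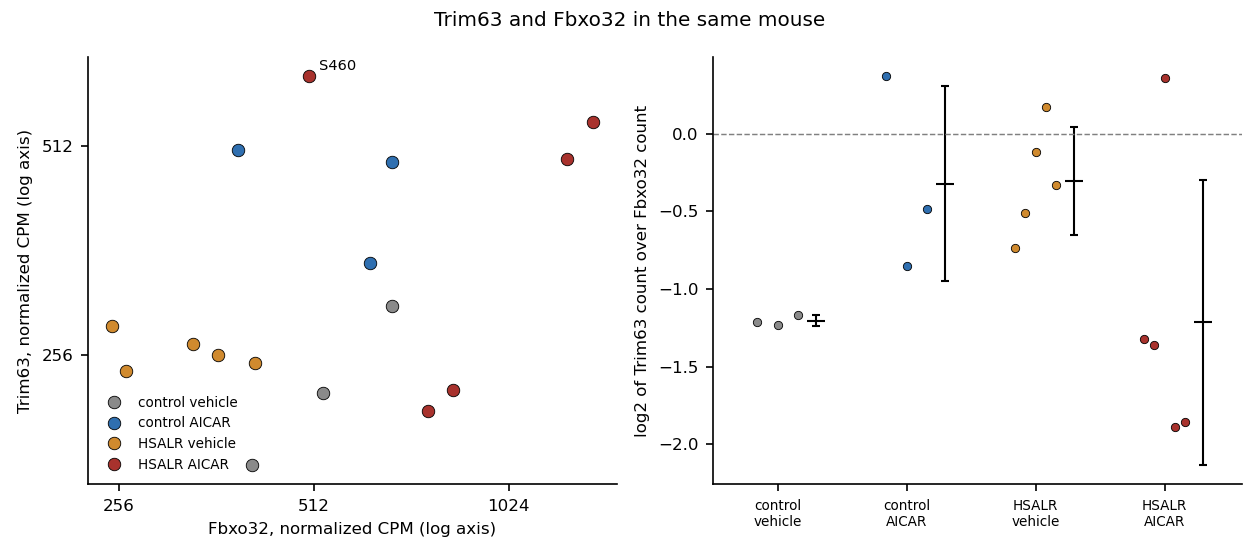
Left, *Trim63* against *Fbxo32* in each mouse in normalized CPM, on log axes. Right, log2 of the *Trim63* count over the *Fbxo32* count by group, with the mean and SD beside the points and a dashed line at equal counts. Of the HSALR mice on AICAR, 4 lie between -1.89 and -1.32 and S460 lies at 0.36.

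Shares of the 4 FOXO genes were taken from their summed level per kilobase. *Foxo4* made up 86.6% ± 0.74 (SD, n = 3) of the sum in control mice on vehicle, 78.7% ± 4.54 (n = 3) in control mice on AICAR, 78.9% ± 1.96 (n = 5) in HSALR mice on vehicle and 78.8% ± 4.04 (n = 5) in HSALR mice on AICAR. *Foxo3* had 5.75% ± 0.50 and 9.68% ± 1.65 in control mice on vehicle and AICAR, and 6.83% ± 0.51 and 10.9% ± 0.74 in HSALR mice. *Foxo6* went from 7.47% ± 2.89 to 2.54% ± 0.76 with AICAR in HSALR mice, where its ranges did not overlap. *Foxo1* lay between 3.85% and 8.37% in all mice on vehicle, and S447 and S460 reached 15.1% and 13.2% on AICAR. In HSALR mice the AICAR differences for *Foxo3* and *Foxo6* had an exact permutation p of 0.0079, the smallest that 5 against 5 allow. Without S460 the AICAR difference in HSALR mice went from 0.94 to -0.41 percentage points for *Foxo1* and from -0.12 to 1.62 for *Foxo4*. Over the 16 comparisons made, the adjusted p of the AICAR difference in HSALR mice was 0.063 for *Foxo3* and for *Foxo6*. No share passed. Shares of a whole are not independent of each other.

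**Figure D4:**
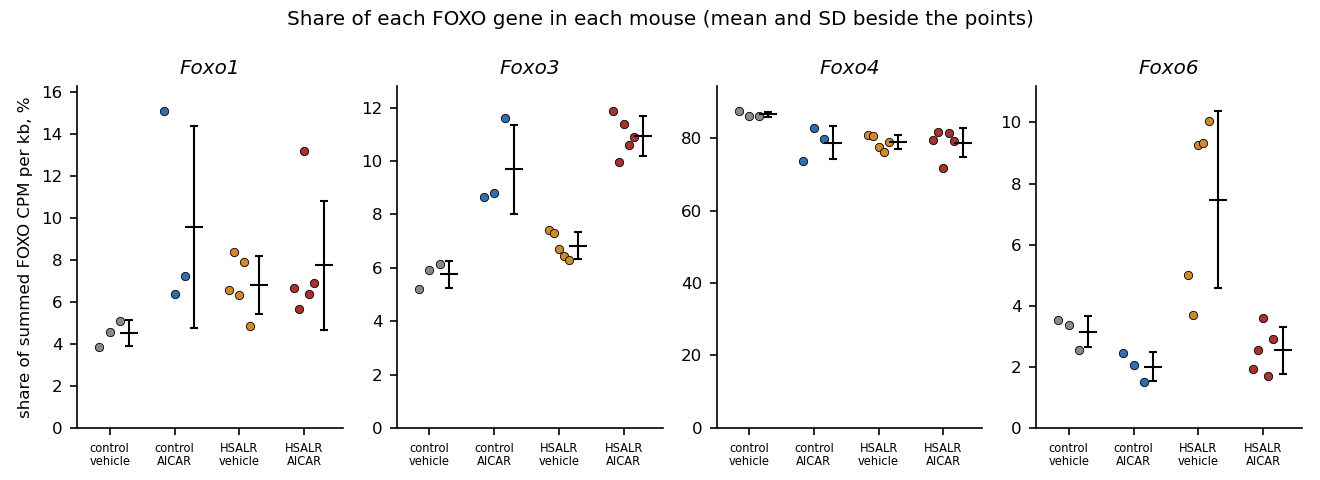
Share of each FOXO gene in the summed FOXO level per kilobase, in percent, with 1 point per mouse and the mean and SD beside the points. The axes start at 0 and differ between panels. *Foxo4* holds 71.8% to 87.4% of the sum in every mouse, and *Foxo3* is at 8.66% or more in each mouse on AICAR and at 7.42% or less in each mouse on vehicle.

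Partners of the ligases were examined through 25 genes of the SCF core, other ubiquitin ligases of muscle, ubiquitin genes and deubiquitinases, all of them tested. Between vehicle-treated HSALR and control muscle 4 were higher and 4 lower, where 15.4% and 11.5% of all genes were, with a median log2 fold change of 0.03. *Fbxl22*, for an F-box protein of the sarcomere, was higher at 9.66 against 5.38 CPM (log2 fold change 0.84, adjusted p = 0.0019). The HECT ligase gene *Wwp1* was lower (-0.36). AICAR in control mice changed none of the 25 by edgeR's quasi-likelihood test, where 13.2% of all genes changed. Of the 25, 3 had an unadjusted p under 0.05. In HSALR mice AICAR was followed by higher levels of 4 and lower levels of 4, where 13.7% and 13% of all genes changed in these directions. *Otud1*, a deubiquitinase gene, fell from 60.2 to 19.6 CPM (log2 fold change -1.62, adjusted p = 0.0033) and *Fbxl22* fell from 9.66 to 5.64 CPM (-0.78). By edgeR's quasi-likelihood test *Fbxl22* was the only gene of the 25 whose AICAR effects differed between the genotypes (-1.12, adjusted p = 0.040). Of all genes, 0.691% differed in this way. The call of *Fbxl22* was lost in 12 of the 16 fits without a mouse, and DESeq2 called 2 of the 25. On AICAR, *Wwp1* was lower (-0.30) and *Nedd8* (0.27), for the ubiquitin-like protein that activates cullins, was higher in HSALR muscle. These were 2 genes of 25, where 21.8% of all genes differed. Without the 6 libraries with epidermal RNA, 1 gene of the 25 was called between the genotypes on vehicle and 2 with AICAR in HSALR mice. With *Tbp* scaling, *Wwp1* had a value of -0.08 between the genotypes on vehicle. On AICAR, *Wwp1* (-0.34) and *Nedd8* (0.23) kept their size with that scaling but not their calls, and 0 of the 25 were called. Leaving out S450 took the count on vehicle from 8 to 5, and leaving out S460 took the count on AICAR from 2 to 6. In HSALR mice the count with AICAR was 13 with library-size scaling, 2 higher and 11 lower, and 4 with the epidermal score as covariate.

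Of 23 other genes known as FOXO targets, 2 were higher and 6 lower in vehicle-treated HSALR muscle (26.9% of all genes changed), with a median log2 fold change of -0.17. *Cdkn1a*, for the cell cycle inhibitor p21, was at 98.2 against 32.5 CPM (log2 fold change 1.60, SE 0.34, adjusted p = 0.0027) and *Gadd45a*, a stress response gene, at 50.6 against 19.8 CPM (1.35). *Irs2*, for an insulin receptor substrate, was lower (-1.17, adjusted p = 0.041), a call lost in 12 of 29 alternatives. The autophagy genes *Ulk1* and *Map1lc3b* were among those that were lower. With AICAR in HSALR mice 5 rose and 4 fell (26.6% of all genes changed). *Cdkn1a* (-1.16) and *Gadd45a* (-0.93) fell, and *Txnip*, a regulator of glucose uptake and redox state, rose from 522 to 1374 CPM (1.40, adjusted p = 2.97e-04). With the epidermal score as covariate the log2 fold change of *Cdkn1a* was -1.04 (adjusted p = 0.066), and without the 6 libraries it was -1.25 (0.18), so the value stayed while the call was lost. Its difference between the genotypes on vehicle was likewise 1.92 without the 6 libraries (adjusted p = 0.10). *Gadd45a* kept its calls in these fits. With AICAR in control mice 2 rose and 1 fell, a share near the 13.2% of all genes. *Tgif1*, for a transcriptional repressor, rose from 5.76 to 12.3 CPM (1.10) and *Sod2*, for the mitochondrial superoxide dismutase, by 0.28 on the log2 scale, while the autophagy kinase gene *Ulk1* fell (-0.35). None differed in its AICAR effect between the genotypes by edgeR's quasi-likelihood test, and 5 had an unadjusted p under 0.05. On AICAR, 1 was higher in HSALR than in control muscle, *Map1lc3a* of autophagosome membranes (0.63), and 3 were lower, among them *Cat* for catalase (-0.36) and *Map1lc3b* (-0.19), where 21.8% of all genes differed. This count of 4 was 1 without S447, 2 without S448, S454, S455 or S463, and 7 without S460. It was 7 with DESeq2, 8 by the likelihood ratio test and 1 with *Tbp* scaling. The vehicle count of 8 was 5 without S450 or S453 and 4, all higher, with *Tbp* scaling, and the count of 3 in control mice was 1 without S447 or S450 and 5 with DESeq2 or the likelihood ratio test. The calls of *Cat* and *Map1lc3b* were lost in 10 and 5 of the 16 fits without a mouse, and those of *Tgif1* and *Ulk1* with AICAR in control mice in 4 each. Without the 6 libraries, 2 of the 23 were called between the genotypes on vehicle, 0 with AICAR in control mice, 4 with AICAR in HSALR mice and 2 between the genotypes on AICAR.

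Among 17 genes whose products regulate FOXO proteins, 3 were higher and 3 lower in vehicle-treated HSALR muscle (26.9% of all genes changed). *Prkaa2*, for the AMPK subunit alpha 2, was at 368 against 500 CPM (log2 fold change -0.44, adjusted p = 0.0027), the acetyltransferase gene *Ep300* was lower (-0.40), and *Ywhae*, for a 14-3-3 protein of the kind that holds FOXO in the cytoplasm, was higher (0.38). With AICAR in control mice 3 rose and 1 fell (13.2% of all genes changed). *Ppargc1a*, for the coactivator PGC-1alpha, rose from 53.9 to 171 CPM (1.66, adjusted p = 0.0011), *Smad3* of TGF-beta signalling rose (0.73), and *Sgk1*, for a kinase that phosphorylates FOXO, fell from 181 to 77.0 CPM (-1.23). With AICAR in HSALR mice 5 rose and 1 fell (26.6% of all genes changed), with *Ppargc1a* from 55.9 to 93.4 CPM (0.74), *Akt1* from 50.6 to 67.1 CPM (0.41) and *Prkaa1* of AMPK from 28.0 to 23.1 CPM (-0.28). This count of 6 was 3 with *Tbp* scaling and 3 with the epidermal score as covariate, where *Ppargc1a* (0.81, adjusted p = 0.062) and *Prkaa1* (-0.29, adjusted p = 0.061) kept their size but not their calls. No gene of the 17 differed in its AICAR effect by edgeR's quasi-likelihood test, and 4 had an unadjusted p under 0.05. DESeq2, the likelihood ratio test and the fit without S460 called 1 each, with a positive difference. *Tbp* scaling called 1 with a negative difference. On AICAR, 3 were higher and 4 lower in HSALR than in control muscle (21.8% of all genes differed), or 4 in all without S449. *Sgk1* was at 170 against 77.0 CPM (1.14), *Ppargc1a* at 93.4 against 171 CPM (-0.87) and *Smad3* at 151 against 253 CPM (-0.75). The rise of *Smad3* in control mice was lost in 5 of the 16 fits without a mouse, and the lower *Prkaa2* and *Ep300* with *Tbp* scaling. Without the 6 libraries, 1 of the 17 was called between the genotypes on vehicle, 2 with AICAR in control mice, 3 with AICAR in HSALR mice and 6 between the genotypes on AICAR.

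**Figure D5:**
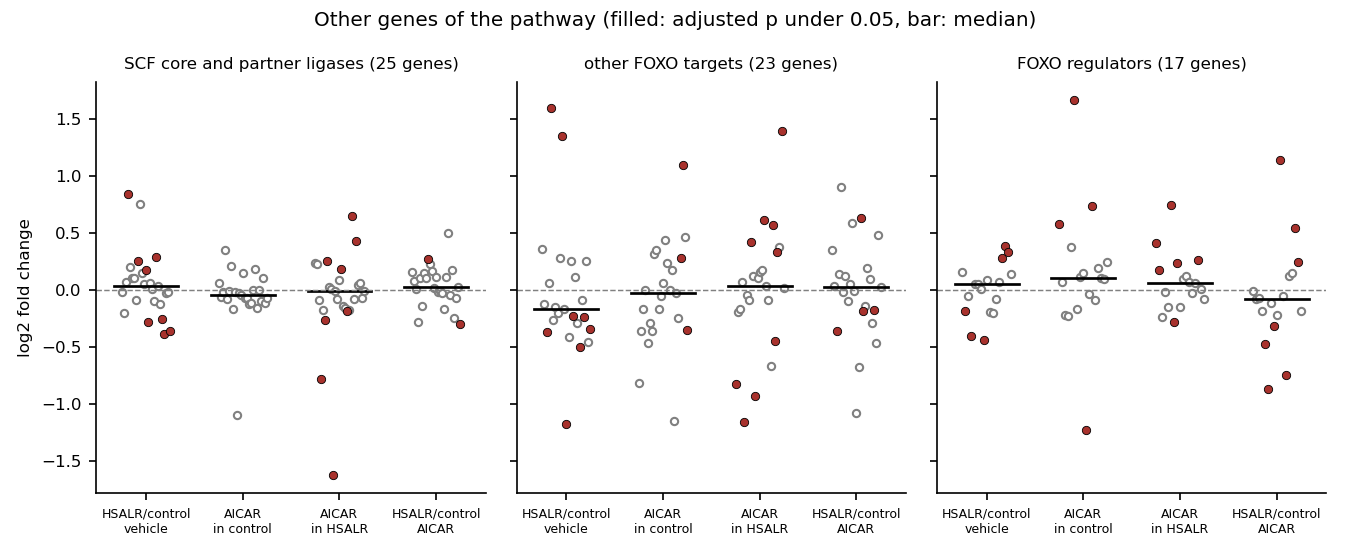
Log2 fold change of each gene of the 3 pathway lists in the 4 comparisons between groups. Filled points passed an adjusted p of 0.05 and bars mark the median of the list. The medians lie between -0.17 and 0.10, with single genes out to *Otud1* at -1.62 and *Ppargc1a* at 1.66.

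The genes whose levels followed each member most closely over the 16 mice were found by Pearson correlation of log2 normalized CPM among 9837 genes. These values describe the libraries, which share depth, batch and group differences. *Foxo3* was followed by *R3hdm1* (r = 0.97), *Dync1li1* (0.94) and *Zfp189* (0.94). *Fbxo32* was followed by *Klhl38* (0.94), *D230025D16Rik* (0.94) and *Zcchc24* (0.91), and *Trim63* by *Relb* (0.87) and *Plekhf1* (0.87). For *Foxo4* these were *Kbtbd12* (0.94), *Lrrc20* (0.94) and *Rfesd* (0.93), for *Foxo6* they were *Kcnc4* (0.94), *Trib1* (0.92) and *Golga7b* (0.91), and for *Foxo1* they were *Cnksr3* (0.91), *Fgfr3* (0.88) and *Zbtb46* (0.88). *Fbxo31* was followed by *Tsnax* (0.93), *Ttc7b* (0.92) and *Hp1bp3* (0.92), *Fbxo30* by *Rab6a* (0.91), *Prrg1* (0.88) and *Cops2* (0.86), and *Fbxo21* by *Arhgef6* (0.82), *Gpatch8* (0.81) and *Rps6ka2* (0.81).

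Members lie on chromosomes 3 (*Foxo1*), 4 (*Foxo6* and *Trim63*), 5 (*Fbxo21*), 8 (*Fbxo31*), 10 (*Foxo3* and *Fbxo30*), 15 (*Fbxo32*) and X (*Foxo4*). The GENCODE annotation of GRCm38 places antisense genes over exons of *Foxo1* (*Gm20402*, 674 shared bases) and *Fbxo32* (*Gm15943*, 186 shared bases). RefSeq lists another gene that overlaps the span of *Foxo3* (*Gm38485*), *Foxo6* (*Gm52678*) and *Fbxo32* (*Gm36112*). Whether strand was used in counting is not given in the sources used here, so reads from an antisense partner could not be told apart from those of the member.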

How the data were processed

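RNA from powdered *gastrocnemius* muscle of 16 mice was made into stranded TruSeq mRNA libraries and sequenced from a single end. The authors mapped the reads to mm10 with STAR 2.5.2a and kept 1 placement of a read that mapped equally well to several. With QuasR, a read was assigned to a gene by the RefSeq exon that held its first base. The deposited values are these counts, whole numbers without normalization, for 24454 genes with a gene length. RefSeq symbols (GRCm38.p6) matched 24374 identifiers, and 80 did not match.

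Counts were scaled by TMM, filtered with filterByExpr over the 4 groups and fitted with 1 mean per group in edgeR 4.0.16 (R 4.3.3, glmQLFit without robust estimation, glmQLFTest). P-values were adjusted by the Benjamini-Hochberg method over 15487 genes, and a gene was called at an adjusted p under 0.05. Errors are SDs of normalized CPM over mice or SEs of the model. Log2 ratios and FOXO shares were compared by two-sided exact permutation tests. Depth was between 64890014 and 81987726 counts, with TMM factors from 0.906 to 1.06. Pairs of replicates differed beyond sampling noise (chi-square per degree of freedom 25.1 to 141). Mouse numbers are not shared between groups, so no pairing was used.

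Other settings tried were the likelihood ratio test of edgeR, voom in limma 3.58.1, DESeq2 1.42.0, scaling by library size, upper quartile, RLE or *Tbp*, other filters, robust dispersion, only the groups compared, an epidermal score as covariate, and leaving out each mouse. Leaving out the 6 libraries with epidermal RNA, and applying the alternatives to the pathway lists, was added after seeing the data. The code was tested on simulated data. The members and gene lists were chosen with earlier results of these data known. Named from each list were the 3 called genes with the largest log2 fold change per comparison at a mean of at least 1 CPM, and for each member the 3 genes of highest correlation at a mean of at least 5 CPM. Some genes that this rule names are not reported here. *Ulk1* and *Map1lc3b* in vehicle-treated mice were named after their values were seen. Marker lists for adipocytes (5 genes) and Schwann cells (4 genes) were also examined. No adipocyte marker was called in any comparison by edgeR's quasi-likelihood test, and of the Schwann cell markers 1 was called, lower in HSALR than in control mice on AICAR. Of 8 muscle fibre markers, 3 were higher in HSALR than in control mice on vehicle.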

Additional observations from a re-analysis of the deposited data

Results flagged for a closer look

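A single HSALR mouse on AICAR, S460, stood apart from the other 4 mice of its group in 4 of the 14 values examined in it, by Dixon's test of the gap to the nearest mouse, and no mouse did in the 14 values of the HSALR mice on vehicle. Chance flags about 1 in 20 such groups of values, and the 4 values are not independent of each other. Its *Foxo1* level was 65.0 CPM, where the others had 24.3 to 31.1 CPM. Its *Foxo1* share of the summed FOXO level was 13.2% against 5.66% to 6.90%, and its *Foxo4* share was 71.8% against 79.3% to 81.8%. The log2 ratio of *Trim63* to *Fbxo32* was 0.36 in this mouse and -1.89 to -1.32 in the others. Its epidermal markers summed to no more than 0.37 CPM.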

How the results depend on the processing

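Of 1296 values of single members under other settings, 1190 kept their direction and side of the threshold, 30 lost their call, 23 gained one and 53 changed sign, the last only for members that were called in neither fit. Of 956 values of named pathway genes, 862 kept both and 94 lost their call. Causes were not tested except where stated. No paired analysis was possible because no mouse number is shared between groups. With 3 to 5 mice a group, changes that were not small also failed to pass edgeR's quasi-likelihood test. With AICAR in control mice these were 2.03 times for *Foxo1* and 1.90 times for *Trim63*. Between the genotypes on vehicle, *Fbxo32* was at 0.60 times the control level.

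Between the genotypes on vehicle, 3 members were called, 1 with *Tbp* scaling and 1 without the 6 libraries with epidermal RNA, a setting chosen after seeing the data that leaves fewer mice (the lone HSALR vehicle mouse is assumed to vary like the others). Log2 fold changes that changed sign were, with *Tbp* scaling, *Foxo3* 0.24, *Fbxo30* 0.13 and *Fbxo21* 0.050, with the epidermal score as covariate *Foxo3* 0.0092, and without the 6 libraries *Foxo3* 0.023 and *Fbxo30* 0.20. Leaving out each mouse, *Foxo3* ranged from -0.084 to 0.0035 and *Trim63* from -0.025 to 0.36.

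For AICAR in control mice, 2 members were called, 4 by the likelihood ratio test, 1 with only the groups compared (*Trim63*, while *Foxo3* and *Foxo4* lost their calls), 1 without the 6 libraries, and 1 to 3 leaving out each mouse (1 without S445 or S447, 3 without S460 or S463). *Fbxo21* had -0.033 with upper-quartile scaling and -0.027 with library-size scaling. With *Tbp* scaling *Fbxo30* had 0.18 and *Fbxo31* 0.13, and without the 6 libraries *Fbxo30* had 0.073. Leaving out each mouse, *Fbxo32* ranged from -0.093 to 0.27, *Fbxo30* from -0.10 to 0.069 and *Fbxo21* from -0.023 to 0.054.

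For AICAR in HSALR mice, 3 members were called and 0 without the 6 libraries. *Foxo1* had -0.0021 with the covariate and *Foxo4* 0.050 without the 6 libraries. Leaving out each mouse, *Foxo1* ranged from -0.12 to 0.32, *Foxo4* from -0.028 to 0.014 and *Fbxo30* from -0.18 to 0.017. The log2 ratio of *Trim63* to *Fbxo32* ranged from -1.301 to -0.74, the *Foxo1* share from -0.41 to 1.47 percentage points and the *Foxo4* share from -0.89 to 1.62.

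For the difference of the AICAR effects, 0 members were called, 1 by DESeq2, 1 by the likelihood ratio test and 0 to 1 leaving out each mouse (1 without S460). *Foxo3* had -0.0026 with library-size scaling, -0.29 with *Tbp* scaling, -0.069 with the covariate and -0.18 without the 6 libraries. With *Tbp* scaling *Foxo4* had -0.088, *Fbxo21* -0.20 and *Fbxo31* -0.070. Leaving out each mouse, *Foxo3* ranged from -0.11 to 0.21 and *Fbxo30* from -0.15 to 0.051.

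Between the genotypes on AICAR, 1 member was called, 2 by the likelihood ratio test, 0 with *Tbp* scaling and 0 to 3 leaving out each mouse (0 without S447 or S449, 3 without S460). Leaving out each mouse, *Foxo1* ranged from -0.83 to 0.053, *Trim63* from -0.27 to 0.10, *Foxo3* from -0.16 to 0.18, *Foxo6* from -0.045 to 0.38, the log2 ratio from -1.28 to -0.55, the *Foxo1* share from -3.40 to 0.95 percentage points and the *Foxo4* share from -2.44 to 2.03.

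*Tbp* scaling, on a single gene, moved the median log2 fold change of all genes by 0.27 between the genotypes on vehicle, 0.20 and -0.11 with AICAR in control and HSALR mice, and -0.31 for their difference. Genes called higher and lower between the genotypes on vehicle were 2385 and 1784 with TMM and 5053 and 242 with *Tbp*. With AICAR in control mice they were 1301 and 738 with TMM, 945 and 1149 with upper quartile, 916 and 890 with library size and 2028 and 122 with *Tbp*. With AICAR in HSALR mice they were 2114 and 2007 with TMM, 1327 and 2962 with library size and 697 and 2071 with *Tbp*. For the difference of the effects they were 32 and 75 with TMM, 48 and 70 with upper quartile and 6 and 375 with *Tbp*. Between the genotypes on AICAR they were 1886 and 1493 with TMM and 681 and 715 with *Tbp*. Of all genes, 4121 were called with AICAR in HSALR mice and 2108 with the covariate. With AICAR in control mice 2039 were called, 1164 with only the groups compared, and 1214, 1344 and 1143 without S445, S448 and S449. Without S447, 2214 were called between the genotypes on AICAR. Called without the 6 libraries were 904 genes between the genotypes on vehicle (4169 with them), 697 with AICAR in control mice and 899 with AICAR in HSALR mice. For the difference of the effects 107 were called, 536 by DESeq2, 322 by the likelihood ratio test, 57 with the covariate, 0 without the 6 libraries, and from 15 without S448 to 371 without S460.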
